A study of Homo sapiens with 15 samples.

Results

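The 78 genes described here carry the symbols of mitochondrial ribosomal proteins. Every symbol in the footprint table was taken that consists of MRPL or MRPS, a number and, for some, a letter A to C. These are 78 of 20248 symbols in that table. All 78 also occur in the total RNA table of 56475 symbols. MCF-10A, a non-tumorigenic line of human mammary epithelium, received control siRNA or siRNA directed at eIF3e, each at 20 nM for 72 h. The target, eIF3e, belongs to the initiation factor eIF3, and the comparison asks how mRNA levels and their translation change when it is lost. Total RNA and ribosome footprints were sequenced from 3 libraries per siRNA, and footprints of total, eIF3B-bound and eIF3E-bound ribosomes from 1 library each, for which the labels name no siRNA.

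The mitochondrial ribosome, or mitoribosome, translates the few mRNAs of the mitochondrial genome, all of which encode subunits of the respiratory chain or of ATP synthase. Its ribosomal RNAs are mitochondrial transcripts, whereas all of its proteins are encoded in the nucleus, translated by cytosolic ribosomes and imported. Some of these proteins take the place of a bacterial ribosomal protein, and others are specific to mitochondria. From general knowledge of mitoribosome structures rather than from a reference table, 51 of the 78 members were assigned to the large subunit and 26 to the small subunit, with MRPS18A and MRPS30 in the large subunit despite their symbols. MRPS36, whose RefSeq symbol is now KGD4, is a component of the 2-oxoglutarate dehydrogenase complex and was put in neither. It was kept among the 78 members. The genes lie on 21 chromosomes, with at most 8 on any of them, and the span of 18 members overlaps that of another protein-coding gene.

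Depth ranged from 4263767 to 5646270 counts in total RNA, from 1889543 to 3447360 in footprints after siRNA, and from 1224606 to 1630872 in the single footprint libraries. EIF3E itself stood at 198, 219 and 188 CPM in total RNA after control siRNA and at 20.6, 21.4 and 25.9 after eIF3e siRNA (log2 change -3.15 ± 0.12, SE, edgeR adjusted p = 1.61e-10). Levels are given throughout as CPM, read counts scaled to a common library size with edgeR's TMM factors. All 10 epithelial and basal markers checked were detected, with summed levels of 11100 to 12200 CPM in control total RNA and 10600 to 11400 CPM after eIF3e siRNA. Single markers in the sum moved in opposite directions, with KRT14 at 292 to 403 CPM in controls and 148 to 216 CPM after eIF3e siRNA, and EGFR at 760 to 814 and 1210 to 1420 CPM. The 5 fibroblast markers summed to 30.3 to 40.0 CPM and 50.8 to 55.7 CPM in the same groups, most of it DCN, with COL1A2 at 0 in all 6 libraries. The 4 blood markers summed to 44.2 to 79.5 and 72.8 to 84.7 CPM, with CD3E at 0, most of the sum from CD14, and 37.7 CPM from HBB in 1 control library. In footprints the epithelial and basal markers summed to 26100 to 29300 and 24300 to 25300 CPM. There the fibroblast markers summed to 65.5 to 91.0 and 135 to 163 CPM, and the blood markers to 138 to 164 and 245 to 361 CPM. The part of these genes in the results below was not tested. In bulk samples, fewer cells of a type and less RNA per cell cannot be told apart. Nothing in the labels says that the replicates came from different cultures. The p-values therefore speak only of the spread among these libraries, which may be technical.

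Mitoribosomal protein mRNAs were mostly higher after eIF3e siRNA. In total RNA, 24 of the 75 members tested rose and 1, MRPL10, fell (edgeR quasi-likelihood test, adjusted p under 0.05). Over all 11719 genes tested, 18.8% rose and 18.7% fell. The share of members called in either direction, 33.3%, was thus not above the 37.5% of all genes, and the members differed in their direction. At an unadjusted p under 0.05 there were 33 members, where 46.8% of all genes passed. The median change of the 75 members was 0.40 on the log2 scale, against 0.02 for all genes, and 59 of them (78.7%) had a fitted change above 0, against 51.2% of all genes. The 3 eIF3e siRNA libraries lay above the 3 control libraries without overlap for 34 members and below them for 5, where 25.4% and 24.2% of all genes did so. Together the 78 genes took 0.0846, 0.0994 and 0.0943% of counts in the control libraries, and 0.130, 0.132 and 0.132% after eIF3e siRNA. Within the genes that the footprint table also lists, these shares were 0.132 to 0.140% and 0.170 to 0.181%. With DESeq2's Wald test in place of edgeR, 16 members and 29.0% of all genes were called in total RNA.

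Ribosome footprints on these mRNAs moved the same way, with fewer members called. Fewer of all genes were called too, 18.5% against 37.5% in total RNA. In footprints, 13 of the 74 members tested rose and 0 fell, and 18 (29.8% of all genes) had an unadjusted p under 0.05 (DESeq2 called 12 members and 19.3% of all genes, limma-voom 14 and 22.0%). Among all 9228 genes tested, 10.0% rose and 8.46% fell. Members were called in 17.6% of cases and all genes in 18.5%. The median change was 0.22 on the log2 scale, against -0.01 for all genes, and 48 members were fitted above 0 (64.9%, against 49.6% of all genes). The groups did not overlap for 19 members on the higher side and 5 on the lower, against 17.1% and 16.5% of all genes. The members' share of footprint counts was 0.170, 0.193 and 0.211% in control libraries and 0.224, 0.248 and 0.237% after eIF3e siRNA. With 1 library left out, the count ranged from 8 to 13. It was 8 without the second eIF3e siRNA library, where 14.3% of all genes were called, against 18.5% with all libraries. Without the second control library it was 9, and the share of all genes was not taken there.

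**Figure D1:**
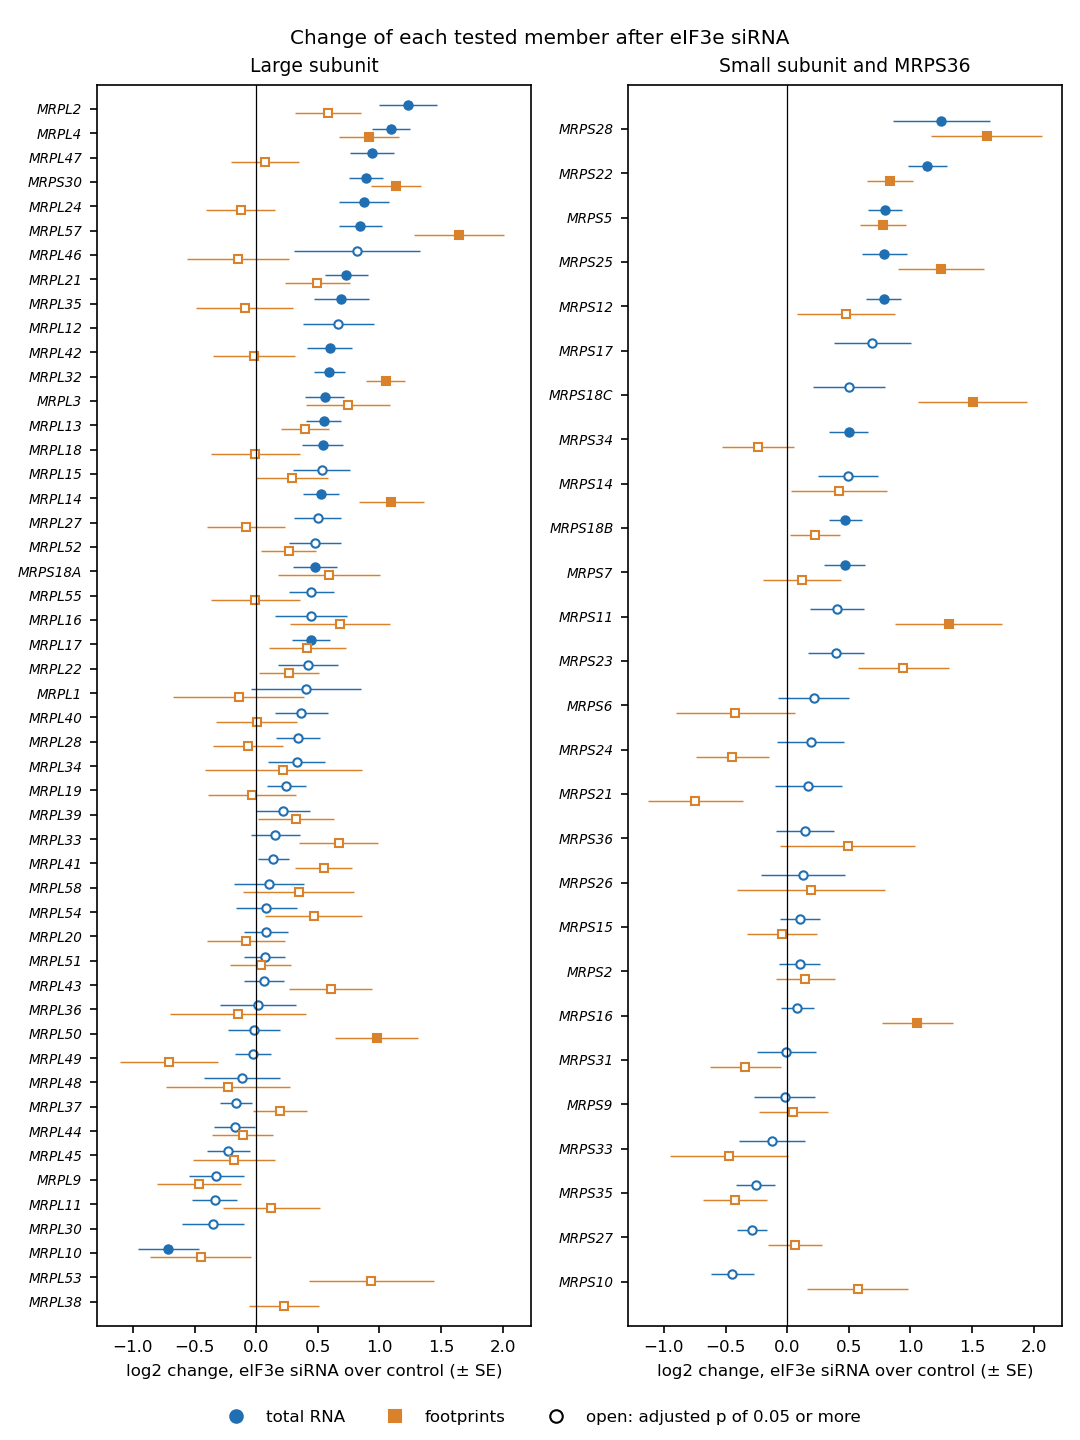
Fitted log2 change (eIF3e siRNA over control siRNA, ± SE, 3 libraries per group) of every member that passed the count filter, in total RNA (circles) and footprints (squares), with large subunit members on the left. Filled symbols passed an adjusted p of 0.05. Most circles lie right of 0, and MRPL10 is the only filled symbol on the left.

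Both assays called 9 members higher: MRPL4, MRPL14, MRPL32, MRPL57 and MRPS30 of the large subunit and MRPS5, MRPS22, MRPS25 and MRPS28 of the small subunit. They make up 37.5% of the members that rose in total RNA and 69.2% of those that rose in footprints. The shares of all genes called higher in both assays, in total RNA only or in footprints only were not taken. This overlap, and the sets called in only a single assay below, are therefore not set against all genes.

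Among large subunit proteins, MRPL4 is the counterpart of bacterial L4, which lines the tunnel through which the new peptide leaves the ribosome. Its total RNA level was 13.4, 13.3 and 19.0 CPM in the control libraries and 33.6, 33.2 and 30.4 CPM after eIF3e siRNA. The groups stood well apart, with a log2 change of 1.09 ± 0.16 (edgeR adjusted p = 5.43e-05). Its footprints went from 27.0, 30.1 and 39.6 CPM to 46.5, 73.5 and 61.8 CPM (0.91 ± 0.24, edgeR adjusted p = 0.00678). This call was lost without the second eIF3e siRNA library (adjusted p = 0.0667). MRPS30 is specific to mitochondria. Its mRNA stood at 20.5, 28.8 and 23.9 CPM in control libraries and reached 46.3, 45.3 and 45.0 CPM with eIF3e siRNA (0.89 ± 0.13, edgeR adjusted p = 8.78e-05). The 3 eIF3e siRNA libraries nearly coincided. MRPS30 footprints rose from 42.6, 43.4 and 36.6 CPM to 87.8, 77.9 and 103.9 CPM, again with no overlap (1.14 ± 0.20, edgeR adjusted p = 9.25e-05).

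MRPL32 is made as a precursor that a protease of the inner membrane cleaves before the protein joins the ribosome, as shown in yeast and mouse. It had the smallest footprint p of all members. The control footprint libraries held it at 70.0, 91.3 and 76.7 CPM, and the eIF3e siRNA libraries at 172.1, 156.8 and 163.4 CPM (1.05 ± 0.16, edgeR adjusted p = 1.07e-05). In total RNA it went from 32.5, 26.0 and 25.7 CPM to 41.7, 41.5 and 43.8 CPM, a smaller step of 0.59 ± 0.13 (edgeR adjusted p = 0.00163). MRPL57, a small protein found only in mitochondrial ribosomes, had the largest fitted footprint change of the members. Its footprints were sparse in control libraries, at 6.14, 9.13 and 16.3 CPM, and stood at 33.0, 36.9 and 28.1 CPM after eIF3e siRNA (1.64 ± 0.36, edgeR adjusted p = 0.00131). Its mRNA rose from 8.86, 10.8 and 11 CPM to 20.2, 16.5 and 18.6 CPM (0.85 ± 0.17, edgeR adjusted p = 0.00121). MRPL14 is the counterpart of bacterial L14, at the face where the subunits join. Its footprints were at 17.2, 29.7 and 25.7 CPM in controls and 59.0, 51.5 and 44.2 CPM after eIF3e siRNA (1.1 ± 0.26, edgeR adjusted p = 0.00296). In total RNA the groups were closer, at 32.3, 24.8 and 23.9 against 37.5, 44.1 and 34.8 CPM (0.53 ± 0.14, edgeR adjusted p = 0.00886). This total RNA call was lost without the second control or the second eIF3e siRNA library.

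Of the small subunit, MRPS22 is specific to mitochondria and had the smallest total RNA p of all members. Its mRNA level was 12.3, 16.8 and 13.5 CPM in controls and 27.2, 31.9 and 35.2 CPM after eIF3e siRNA (1.14 ± 0.16, edgeR adjusted p = 4.31e-05). Footprints of MRPS22 went from 47.5, 60.2 and 62.8 CPM to 86.8, 113.3 and 103.6 CPM (0.84 ± 0.19, edgeR adjusted p = 0.00161). Every eIF3e siRNA library was thus above every control library in both assays. MRPS5, the counterpart of bacterial S5, changed by a like amount in both. Its mRNA was at 17.5, 20.9 and 20.6 against 32.9, 38.1 and 31.8 CPM (0.80 ± 0.14, edgeR adjusted p = 0.000293). Its footprints were at 54.8, 55.2 and 55.9 against 94.2, 81.9 and 107.5 CPM (0.77 ± 0.19, edgeR adjusted p = 0.00292). MRPS25, again specific to mitochondria, rose by 0.79 ± 0.18 in total RNA, from 9.09, 12.4 and 13.8 to 23.5, 18.7 and 18.8 CPM (edgeR adjusted p = 0.00289). Its footprints stood at 10.2, 13.2 and 11.4 against 25.3, 31.8 and 25.7 CPM (1.25 ± 0.35, edgeR adjusted p = 0.0101). That footprint call was lost without the second eIF3e siRNA library (adjusted p = 0.0572).

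MRPS28 rests on few reads. Its raw counts in total RNA were 12, 5 and 13 in control libraries and 18, 25 and 28 after eIF3e siRNA (1.25 ± 0.40, edgeR adjusted p = 0.0190). In footprints they were 18, 10 and 12 against 49, 52 and 69 (1.62 ± 0.45, edgeR adjusted p = 0.00964). The groups did not overlap in CPM, but the total RNA call was lost with DESeq2 and without any 1 of 3 libraries (the second control, the second eIF3e siRNA or the third eIF3e siRNA library), and the footprint call without the second control or the third eIF3e siRNA library. A RefSeq readthrough gene, TPD52-MRPS28, covers the same span, and how reads shared with it were counted is not given in the sources used here.

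**Figure D2:**
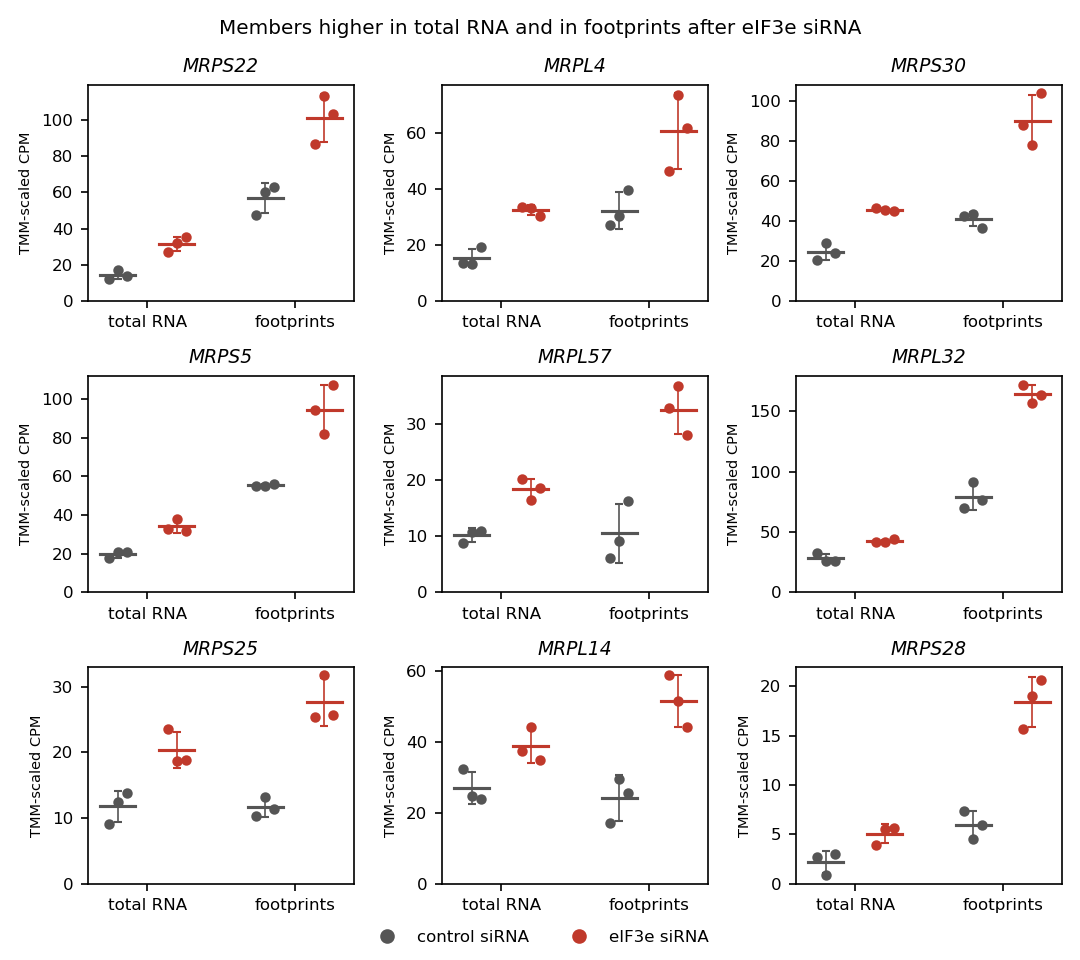
TMM-scaled CPM in each library (points) with the mean (line) and SD (bar, n = 3) for the 9 members called higher in both assays, each axis starting at 0. Red points (eIF3e siRNA) lie above grey points (control siRNA) in every panel and assay.

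A further 15 members rose in total RNA and were not called in footprints: MRPL2, MRPL3, MRPL13, MRPL17, MRPL18, MRPL21, MRPL24, MRPL35, MRPL42, MRPL47, MRPS7, MRPS12, MRPS18A, MRPS18B and MRPS34. MRPL2 is the counterpart of bacterial L2, close to the centre where peptide bonds form. Its mRNA was at 7.27, 4.95 and 4.59 CPM in controls and 14.9, 14.1 and 10.5 CPM after eIF3e siRNA (1.23 ± 0.24, edgeR adjusted p = 0.000676). Its footprints were 40.9, 26.9 and 27.7 against 34.0, 46.4 and 63.0 CPM, and these groups overlapped (0.58 ± 0.27, edgeR adjusted p = 0.136). MRPL47, at the tunnel exit, went from 9.54, 9.90 and 12.2 CPM to 20.0, 17.4 and 23.1 CPM in total RNA (0.94 ± 0.18, edgeR adjusted p = 0.000593), while its footprint change was 0.07 ± 0.28 (edgeR adjusted p = 0.898). MRPS12, the counterpart of the decoding-centre protein S12, rose from 19.8, 19.5 and 17.4 CPM to 28.5, 36.6 and 32.6 CPM in total RNA (0.78 ± 0.14, edgeR adjusted p = 0.000400), with overlapping footprints (0.48 ± 0.40, edgeR adjusted p = 0.468). The other 12 had total RNA changes between 0.44 (MRPL17) and 0.88 (MRPL24). Of these calls, MRPS18A was lost in 8 of 14 alternative analyses, MRPL17 and MRPS7 in 6, MRPL18 and MRPS34 in 5 and MRPL42 in 4. MRPL3 was lost in 3 of 14 and MRPL35 in 3 of 13, whereas MRPL2, MRPL47, MRPS12, MRPL13, MRPL21, MRPL24 and MRPS18B were kept in all 14.

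Footprints alone called 4 members higher. MRPS16, the counterpart of bacterial S16, had footprints of 19.6, 16.0 and 24.2 CPM in controls and 42.9, 48.6 and 32.9 CPM after eIF3e siRNA (1.05 ± 0.29, edgeR adjusted p = 0.00810). Its mRNA groups overlapped, at 27.3, 27.6 and 28.7 against 30.1, 33.2 and 25.3 CPM (0.08 ± 0.14, edgeR adjusted p = 0.658). MRPS18C, which takes the place of bacterial S18, stood at 6.96, 5.93 and 5.93 against 18.3, 17.6 and 17.9 CPM in footprints (1.5 ± 0.44, edgeR adjusted p = 0.0147). MRPS11 went from 6.14, 11 and 5.93 to 18.6, 22.7 and 16.1 CPM (1.31 ± 0.43, edgeR adjusted p = 0.0314), and MRPL50 from 8.59, 20.1 and 26.7 to 36.5, 43.1 and 28.7 CPM (0.98 ± 0.34, edgeR adjusted p = 0.0391). These last calls are the less stable, being lost in 5 of 12 and 6 of 13 alternatives. MRPS16 lost its call without the second control or the second eIF3e siRNA library, and MRPS18C without the second control library.

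MRPL10 was the only member called lower, in total RNA. It is the counterpart of bacterial L10, which anchors the stalk that recruits translation factors. Its mRNA level was 20.2, 21.8 and 15.6 CPM in controls and 7.24, 16.3 and 11.8 CPM after eIF3e siRNA, so that the second eIF3e siRNA library lay within the control range (-0.71 ± 0.25, edgeR adjusted p = 0.0406). The call was lost in 5 of 14 alternatives, 4 of which left out a library. Its footprints were too scattered to show a change, at 7.77, 25.1 and 29.7 against 11.9, 15.0 and 18.5 CPM (-0.45 ± 0.41, edgeR adjusted p = 0.513). Next lowest in total RNA was MRPS10 at -0.44 ± 0.17 (edgeR adjusted p = 0.0538).

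By subunit, 16 of 48 large subunit members tested in total RNA rose and 1 fell, with a median change of 0.41, and 8 of 26 small subunit members rose, with a median of 0.31, beside the 18.8% of all genes that rose and 18.7% that fell. In footprints 6 of 48 and 7 of 25 rose, beside 10.0% of all genes. Of the members with a bacterial counterpart, 16 of 45 rose in total RNA and 1 fell (median 0.45), and of those specific to mitochondria 8 of 29 rose (median 0.13). In footprints 8 of 42 and 5 of 31 rose, with medians of 0.18 and 0.23. MRPS18A and MRPS18B, which resemble bacterial S18 in sequence but sit elsewhere in the ribosome, were counted as specific to mitochondria. The classes were assigned by hand as above, and the difference between them was not tested.

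No member changed in footprints per mRNA by the test. The interaction of assay and siRNA is the change in footprints relative to the change in total RNA. It was tested for 72 members with edgeR, and 0 were called by edgeR, DESeq2 or limma-voom. A member without an adjusted p from DESeq2 could not be called by it. At an unadjusted p under 0.05 there were 7, where 12% of all genes passed. Of all 9055 genes, edgeR called 0.309% and limma-voom 0.375%, and DESeq2 called 3.08% of the 4842 genes it gave an adjusted p. The median was -0.10 for members and 0.01 for all genes, and the members' median moved to 0.01 without the third control libraries. Highest by p was MRPS16 at 0.97 ± 0.30 (edgeR adjusted p = 0.176), followed among positive values by MRPS10 at 1.02 ± 0.42 (edgeR adjusted p = 0.320). On the negative side were MRPL24 at -1.0 ± 0.34 (edgeR adjusted p = 0.215) and MRPS34, specific to mitochondria, at -0.73 ± 0.30 (edgeR adjusted p = 0.324). MRPL24, a counterpart of bacterial L24, had risen in total RNA from 8.41, 8.84 and 5.96 to 12.7, 16.1 and 14.2 CPM, with footprints at 27.8, 28.8 and 30.2 against 24.0, 28.9 and 26.6 CPM. Across the 72 members the changes in the 2 assays had a Pearson's r of 0.491 and a Spearman's rho of 0.452, and across all 9055 genes 0.666 and 0.645. These are descriptions over genes measured in the same libraries. In 40 members both changes were above 0, and in 23 they had opposite signs.

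**Figure D3:**
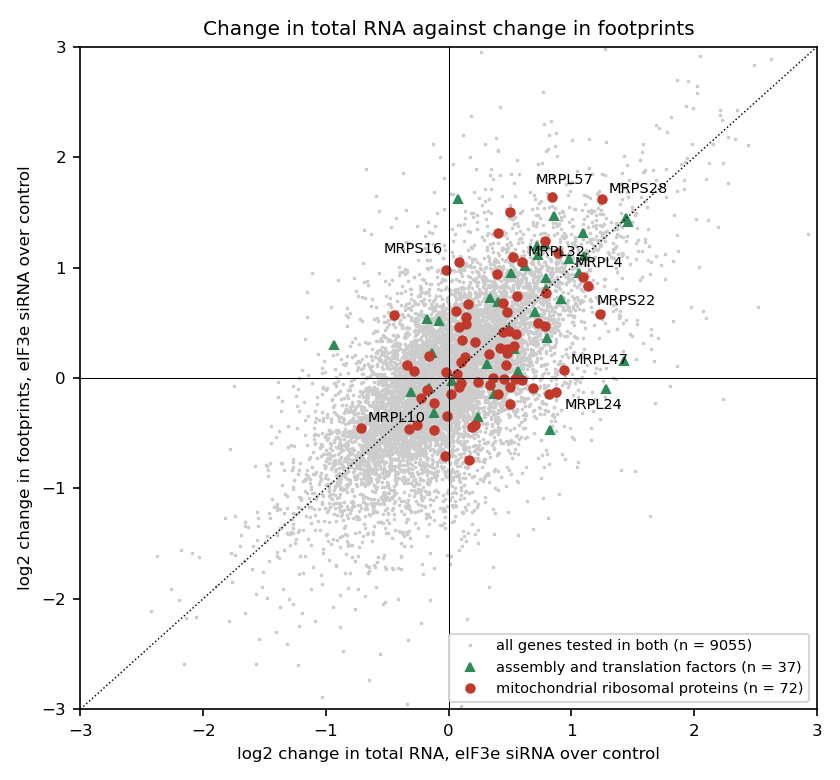
Log2 change in footprints (vertical) against log2 change in total RNA (horizontal), eIF3e siRNA over control siRNA, for 72 members (red), 37 assembly and translation factors (green) and all 9055 genes tested in both assays (grey, those beyond 3 on either axis not shown). Members crowd right of 0 on the horizontal axis and spread on both sides of the dotted line of equal change.

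Of the 78 members, 6 were left out of at least 1 fit for low counts. MRPL23, MRPL38 and MRPL53 did not pass in total RNA, and MRPL12, MRPL23, MRPL30 and MRPS17 did not pass in footprints. MRPS17, the counterpart of bacterial S17, had 0 footprint counts in all 9 footprint libraries. This allows up to 0.870 to 1.59 CPM per siRNA library (3 counts over the library total, without TMM scaling, counting error only). Its mRNA was present, at 24, 24 and 16 counts in controls and 44, 35 and 21 after eIF3e siRNA. MRPL12, which forms the stalk, had 2 footprint counts over the 6 siRNA libraries, MRPL30 had 3 and MRPL23 had 3, each within a single library. MRPL53 showed the opposite imbalance, with 1, 1, 2, 5, 5 and 1 counts in the total RNA libraries and 28, 26, 3, 60, 43 and 44 in footprints. MRPL38 likewise had 5 to 16 counts in total RNA and 45 to 124 in footprints. MRPL23 was low in both assays, with 4 to 10 counts per total RNA library. Why the assays differ for the others of these genes was not tested. MRPL53 and MRPL38 were not called in footprints (edgeR adjusted p = 0.219 and 0.657).

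The mitoribosome also holds subunits with other names, and needs factors for its assembly and for translation itself. Of 5 further subunits tested, PTCD3 rose in both assays, from 31.1, 35.9 and 38.3 to 65.1, 72.5 and 65.2 CPM in total RNA (0.94 ± 0.11, edgeR adjusted p = 1.10e-05) and by 1.27 ± 0.16 in footprints (edgeR adjusted p = 9.21e-07). DAP3 and AURKAIP1 rose in footprints, by 0.56 ± 0.19 and 0.61 ± 0.21 (edgeR adjusted p = 0.0336 and 0.0365), and were not called in total RNA (0.17 ± 0.13 and 0.30 ± 0.13). CHCHD1 and GADD45GIP1 were not called. Among assembly and ribosomal RNA modification factors, 11 of 25 rose and 2 fell in total RNA, and 7 of 23 rose in footprints, beside 18.8% and 18.7% of all genes in total RNA and 10.0% in footprints. They include FASTKD2, an RNA-binding protein of mitochondrial RNA granules, at 1.1 ± 0.13 in total RNA and 1.11 ± 0.16 in footprints (edgeR adjusted p = 8.27e-06 and 4.93e-06). ERAL1, a GTPase that chaperones the small subunit's ribosomal RNA, rose by 1.1 ± 0.13 and 1.31 ± 0.25 (edgeR adjusted p = 8.46e-06 and 0.000212). The methyltransferase-like METTL17 rose by 0.79 ± 0.13 and 1.21 ± 0.20 (edgeR adjusted p = 0.000251 and 4.80e-05). METTL15 and NOA1 fell in total RNA (-0.93 ± 0.31 and -0.31 ± 0.11, edgeR adjusted p = 0.0234 and 0.0323).

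Of 16 mitochondrial translation factors tested in total RNA 8 rose (18.8% of all genes), and of 14 in footprints 6 rose (10.0% of all genes). None was called lower by edgeR in either assay, and in footprints 9 of 14 had a fitted change above 0. The elongation factor GFM1 went from 17.7, 24.4 and 27.3 to 61.6, 59.8 and 70.5 CPM in total RNA, the largest change of the list (1.46 ± 0.14, edgeR adjusted p = 1.52e-06), and its footprints rose by 1.42 ± 0.20 (edgeR adjusted p = 2.49e-06). The initiation factor MTIF2 rose by 0.98 ± 0.13 and 1.08 ± 0.28 (edgeR adjusted p = 2.62e-05 and 0.00518). OXA1L, which inserts new proteins into the inner membrane, rose by 0.62 ± 0.12 and 1.01 ± 0.13 (edgeR adjusted p = 0.000616 and 1.38e-06). GUF1 and TACO1 were called higher in total RNA and not called in footprints. GUF1 stood at 0.92 ± 0.16 and 0.72 ± 0.40 (edgeR adjusted p = 0.000271 and 0.228). TACO1 stood at 1.28 ± 0.23 and -0.10 ± 0.50 (edgeR adjusted p = 0.0004 and 0.926). None of these assembly and translation factors was called per mRNA by edgeR (unadjusted p under 0.05 in 1 of 23 assembly and 2 of 14 translation factors). Of the cytosolic ribosomal proteins, 0 of 77 rose and 29 fell in total RNA (18.7% of all genes fell), and in footprints 4 of 65 rose and 12 fell (8.46% of all genes fell).

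Of the 13 protein genes that mitoribosomes translate, 4 rose and 1 fell in total RNA (18.8% and 18.7% of all genes). In footprints 0 rose and 4 fell (8.46% of all genes fell), namely MT-ND4, MT-ND6, MT-CO3 and MT-CO1. Per mRNA, MT-ND1, MT-ND4 and MT-ND6 fell (-1.08, -1.0 and -1.24, edgeR adjusted p = 0.0175, 0.0151 and 0.0175). The mitochondrial ribosomal RNAs MT-RNR1 and MT-RNR2 were not called in total RNA (-0.18 ± 0.37 and -0.14 ± 0.27, edgeR adjusted p = 0.748 and 0.712), but these libraries had been depleted of ribosomal RNA.

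Promoter sequence was examined for what the members share beyond their products. RefSeq windows from 250 bases before to 50 after a gene's start (GRCh38.p14) were at hand for 70 of the 78 members, 86 windows in all, since a gene can have several starts. A gene was counted where any of its windows held the motif. Each was searched on both strands for CCGGAAG, the core bound by ETS family factors such as GABPA, for the 10-letter site of NRF1 (the capitals in the MRPL57 sequence, with any base after GCGCA) and for the 10-letter site of YY1 (the capitals in the MRPS30 sequence). No match of one motif overlapped a match of another. These factors are known regulators of nuclear genes for mitochondrial proteins. The ETS letters occurred in 30 of 70 members (42.9%, against 16.5% of protein-coding genes), the NRF1 letters in 9 (12.9% against 9.67%) and the YY1 letters in 13 (18.6% against 2.22%). In 25 members none of the motifs was found. The members that rose in total RNA did not hold the ETS letters more often than the others, with 7 of 19 against 23 of 51. For NRF1 the counts were 3 of 19 and 6 of 51, and for YY1 5 of 19 and 8 of 51. A match is a description of the sequence and not evidence of binding. The first windows of 3 members that rose in both assays are printed from 150 bases before the start to 30 after it, to show how each motif lies; capitals mark the matches on either strand. They are MRPS22 at chr3:139343844-139344023 (plus strand, ETS), MRPS30 at chr5:44808797-44808976 (plus strand, YY1) and MRPL57 at chr13:21176508-21176687 (plus strand, NRF1).
MRPS22: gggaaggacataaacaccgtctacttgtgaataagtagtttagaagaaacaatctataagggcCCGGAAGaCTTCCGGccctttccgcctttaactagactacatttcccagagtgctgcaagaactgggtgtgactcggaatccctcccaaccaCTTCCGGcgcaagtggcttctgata
MRPS30: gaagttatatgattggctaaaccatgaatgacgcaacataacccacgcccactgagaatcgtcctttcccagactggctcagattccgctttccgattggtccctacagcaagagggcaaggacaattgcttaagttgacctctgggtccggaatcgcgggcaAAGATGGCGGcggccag
MRPL57: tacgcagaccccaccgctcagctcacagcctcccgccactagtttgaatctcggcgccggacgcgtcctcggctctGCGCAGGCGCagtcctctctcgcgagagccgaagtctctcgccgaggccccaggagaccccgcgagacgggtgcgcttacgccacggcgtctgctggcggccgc
The MRPS22 window holds an ETS match on each strand, beginning 87 and 79 bases before the start, and another on the minus strand just after it. In MRPS30 the YY1 letters begin at base 14 counted from the start, whereas the NRF1 letters of MRPL57 begin 74 bases before it.

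In the single libraries, footprints on mitoribosomal protein mRNAs took nearly the same share of counts in eIF3-bound as in total footprints. The 78 members took 0.464% of counts in total footprints (exact 95% interval 0.452 to 0.476), 0.455% in eIF3B-bound (0.444 to 0.466) and 0.465% in eIF3E-bound footprints (0.455 to 0.476). Intervals cover counting error only, and with 1 library each there is no replicate check and no test. For the 65 members with at least 100 counts over the 3 libraries, the median log2 ratio of eIF3B-bound over total footprints was -0.15, against 0.03 for all 6023 such genes, and that of eIF3E-bound over total footprints was 0.06 against 0.03. At a minimum of 200 counts the eIF3B median was 0.01, and at 50 counts the eIF3E median was -0.01.

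Single members in the eIF3B library ranged from -2.59 to 1.38 in log2 ratio. At least 2-fold higher were 3 of 65 (8.47% of all genes), and at least 2-fold lower 8 of 65 (10.9% of all genes). MRPL45, which in structures sits at the tunnel exit facing the inner membrane, had 33 counts in total and 98 in eIF3B-bound footprints, a log2 ratio of 1.38 (0.80 to 2.0). MRPL54 stood at 1.14 (0.48 to 1.84), MRPS23 at 1.13 (0.69 to 1.58) and, below 2-fold, MRPL2 at 0.88 (0.54 to 1.23). At the other end, MRPS31 had 58 counts in total and 11 in eIF3B-bound footprints (-2.59, -3.67 to -1.64). MRPS10 had 35 and 10 (-2.0, -3.18 to -0.95), followed by MRPL9 at -1.49 (-2.21 to -0.81) and MRPS12 at -1.42 (-2.10 to -0.77).

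The eIF3E library stayed closer to total footprints. No member was 2-fold higher, where 4.32% of all genes were, and 2 of 65 were 2-fold lower (4.73% of all genes). These were MRPL50, with 49 counts in total and 25 in eIF3E-bound footprints (-1.35, -2.11 to -0.63), and MRPL33, with 91 and 50 (-1.24, -1.77 to -0.73). MRPS28 (-0.98) and MRPL47 (-0.94) came next. Highest were MRPS11 at 0.87 (0.16 to 1.62), MRPS26 at 0.76 (0.05 to 1.5), MRPS18B at 0.72 (0.47 to 0.98) and MRPL57 at 0.71 (0.14 to 1.30). In 18 members both ratios were above 0 and in 19 both were below. In 4 members, MRPL27, MRPL32, MRPL38 and MRPS12, the intervals lay on opposite sides of 0. MRPL32 had 61 counts in total, 27 in eIF3B-bound and 126 in eIF3E-bound footprints (-1.37 and 0.67). Mitochondrially encoded mRNAs, whose footprints come from mitoribosomes, had median ratios of -1.89 and -1.72 over 12 genes.

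**Figure D4:**
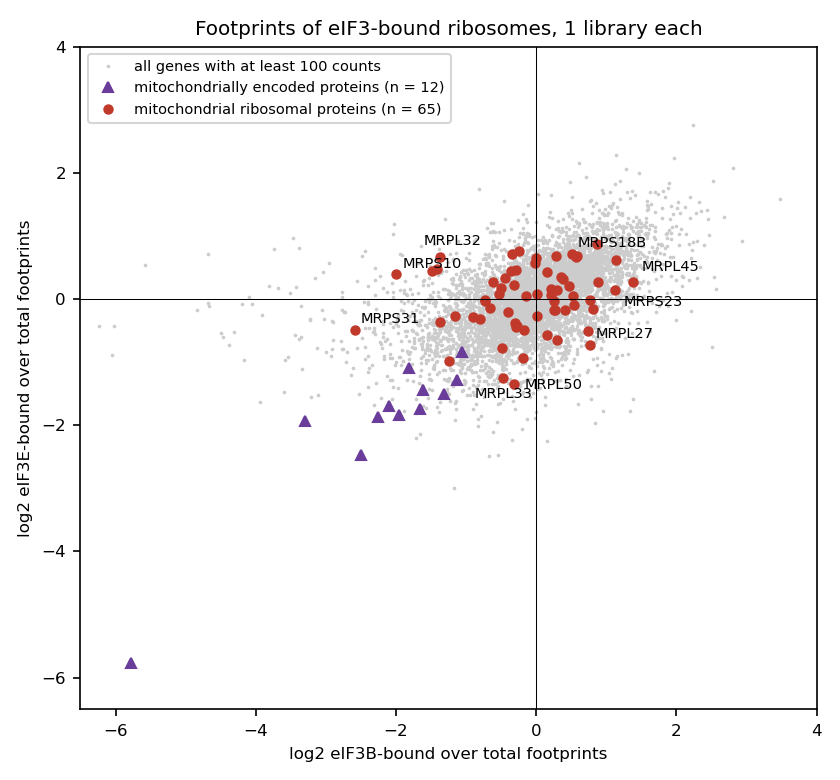
Log2 ratio of eIF3E-bound over total footprints (vertical) against that of eIF3B-bound over total footprints (horizontal), 1 library each, for 65 members (red), 12 mitochondrially encoded genes (purple) and all genes with at least 100 counts over the 3 libraries (grey). Members scatter around 0, with MRPS31 and MRPS10 far left, while every mitochondrially encoded gene lies in the lower left part.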

How the data were processed

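The authors deposited raw read counts per gene symbol, 1 column per library. Tools named by the submitters' processing notes are STAR 2.5, HTSeq, Bowtie 1.1.2 and cutadapt 1.18, and the builds are GRCh38 and hg38. What each did, the annotation, the feature counted and the use of strand are not stated in the sources at hand. Without the strand setting, reads of overlapping genes cannot be told apart. The labels give control or eIF3e siRNA, 3 libraries each per assay.

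The main test was the two-sided quasi-likelihood F test of edgeR 4.0.16 (R 4.3.3), run per assay with TMM scaling after filterByExpr at 10 counts, with p-values adjusted by Benjamini-Hochberg over all genes and called under 0.05. SE is the unshrunk log2 change divided by the square root of F. Footprints per mRNA were the interaction in 1 fit over 12 libraries. DESeq2 1.42.0, limma-voom (limma 3.58.1), other scalings and filters, the replicate block and leaving out each library were alternatives. Single libraries were compared by TMM-scaled ratios with exact conditional 95% intervals.

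The members, the lists and the naming rule were chosen with earlier results of these data known. The rule names, per assay, up to 10 called members each way by adjusted p, the 2 smallest p each way per mRNA, the 4 highest and lowest single-library ratios, members left out by a filter, and up to 4 called genes per other list. Further members were named after their values were seen. Its clause on footprints per codon was not applied, since no coding lengths were used. Sequences, coordinates and overlaps are from RefSeq GRCh38.p14, in which 77 members matched by symbol and 1 by an older symbol. 1 blood marker of the list is not reported here.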

Additional observations from a re-analysis of the deposited data

How the results depend on the processing

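No called member changed sign, but 3 medians did, those per mRNA and of both single-library ratios. Of the counts, that in total RNA went from 25 to 16 with DESeq2's Wald test, which called 29.0% of all genes. It was 31 with library totals, 30 among genes of the footprint table and 18 to 21 with 1 library left out. That in footprints ranged from 8 to 13 with 1 library left out and was 14 with limma-voom. The count per mRNA stayed at 0 in all alternatives. Shares of all genes called were taken only for the settings where they are printed, so the other counts are not set against all genes. Library totals in place of TMM moved the median of all genes by 0.16 in total RNA and -0.21 per mRNA, and the members' medians to 0.55 and -0.33; relative to all genes these are 0.37 and -0.13, against 0.38 and -0.11 with TMM. The median in total RNA was 0.49 at a minimum count of 50, 0.33 with limma-voom and 0.29 to 0.38 with 1 library left out. Leaving out 1 library gave footprint medians of 0.14 to 0.30 and per mRNA medians of -0.14 to 0.0077 (above 0 without the third control libraries). In single libraries the eIF3B median was 0.013 at 200 counts and the eIF3E median -0.0078 at 50 counts. The causes were not tested.

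With the replicate block, 27 members were called in total RNA, 13 in footprints and 0 per mRNA (medians 0.38, 0.25 and -0.08). The share of all genes called with the block was not taken. The numbers were not taken as pairs. For same-numbered libraries of the 2 siRNAs, each gene's mean within its siRNA was first subtracted from its log2 CPM. The remaining deviations, not the levels, correlated by -0.01, 0.19 and 0.30 in total RNA and by -0.001 to 0.03 in footprints. Footprint counts are shallow: MRPS28, with 10 to 18 counts in the control libraries, had an SE of 0.45. A change well above its SE could still miss a call. MRPS23, for example, was not called in footprints at 0.94 ± 0.37 (edgeR adjusted p = 0.0754).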

Other observations

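MRPL46 and MRPS11 are neighbours on chromosome 15 (GRCh38.p14, 88459478 to 88467388 and 88467708 to 88480776), a pair chosen after their values were seen. In footprints MRPS11 rose by 1.31 ± 0.43 (edgeR adjusted p = 0.0314), while MRPL46 stood at 13.5, 10.5 and 20.3 CPM in controls and 14.4, 11.7 and 13.7 CPM after eIF3e siRNA (-0.15 ± 0.41, edgeR adjusted p = 0.862). In total RNA neither was called (0.40 ± 0.22 and 0.82 ± 0.51, edgeR adjusted p = 0.161 and 0.220). In the single libraries the eIF3B ratios were 0.87 for MRPS11 and -1.38 for MRPL46 (95% intervals 0.14 to 1.64 and -2.12 to -0.68). The difference between the genes was not tested.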
